A study of Mus musculus with 12 samples.

Results

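Liver RNA of 3 untreated samples titled HFHS was compared with that of 3 samples titled CNT, gene by gene, among 12637 genes expressed highly enough to test. The 6 libraries were taken from a series of 12 by their sample titles. All were RNA sequencing libraries from flash-frozen livers of female C57BL/6 mice, an inbred strain that gains fat readily on rich diets. The label of every sample, CNT included, states a diet high in fat and sugar for 14 weeks, given to induce nonalcoholic steatohepatitis. What sets the CNT livers apart is therefore not given in the sources used here, and both groups are called by their titles. The other 6 libraries came from livers whose mice received liposomes with curcumin or calcitriol by vein at weeks 12 and 13. They enter the filter on expression, the shared estimate of the spread between libraries, the principal component, the list scores and the alternative normalizations. Each difference given is between HFHS and CNT. Age was not stated. Nor do the labels tell whether each library is its own animal, and the spread behind every p-value may in part be technical.

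A liver on a fat- and sugar-rich diet takes up and makes more fatty acids than it burns or exports, and stores the excess as triglyceride in lipid droplets coated by perilipins and CIDE proteins. In steatohepatitis, the inflamed form, macrophages that have taken up lipid gather around damaged hepatocytes, stellate cells lay down collagen, and hepatocytes divide to replace losses. The differentiated work of the hepatocyte, such as detoxification, bile acid synthesis, urea formation and secretion of plasma proteins, is often reduced in injured liver. The gene groups below follow these roles. Whole liver holds all of its cell types in 1 extract, so fewer cells of a type and less RNA per cell cannot be told apart.

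Values are log2 expression levels as deposited, and a difference of 1 is a 2-fold difference. Read counts are not among the values, so the sequencing depth is unknown and no counting error can be given. Fold differences of weakly expressed genes are probably understated, since their values lie close to a floor of their own. The HFHS libraries were not alike. On the first principal component, which holds 37.5% of the variance of all 12 libraries, HFHS replicates 1 and 3 lay at 32.8 and 28.4. HFHS replicate 2 lay at -3.1, near the treated libraries (-9.0 to -0.4), and the CNT libraries lay between -14.4 and -10.3. The SD between libraries of a group, pooled over genes, was 0.233 in HFHS and 0.177 in CNT. It was smaller in the treated groups, 0.126 with curcumin and 0.148 with calcitriol. The shared estimate of the spread therefore draws on groups tighter than those compared, and on more libraries. That tends to make p-values smaller than the HFHS and CNT libraries alone would give. Single genes could go the other way. For Serpina1e, adjusted p in limma's moderated test was 2.93e-05 with HFHS and CNT alone and 0.00342 with all 12 libraries. Hepatocyte genes such as Cps1, at 14.84 to 16.29 over the 6 libraries, marked every library as liver.

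Between HFHS and CNT, 1505 genes (11.9% of those tested) passed an adjusted p of 0.05 in limma's moderated test. Of these, 828 were higher in HFHS (6.55%) and 677 lower (5.36%), and 58 rises and 34 falls reached 2-fold. In 772 of the 828 rises and 652 of the 677 falls the groups did not overlap. Over all genes tested, the groups did not overlap in 26.9% (12.7% upward and 14.1% downward). The median difference over all genes was -0.011. Over most called genes, HFHS replicate 2 lay on the same side of CNT as the other HFHS libraries but less far. These genes were called with that library included, so its direction was largely set by their selection. The level in HFHS replicate 2 exceeded all 3 CNT levels for 774 of the 828 rises, yet it was the lowest HFHS library in 664 of them. Over the called rises, the median distance from the CNT mean was 0.69, 0.28 and 0.57 in HFHS replicates 1, 2 and 3. Over the called falls it was -0.46, -0.28 and -0.47.

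**Figure D1:**
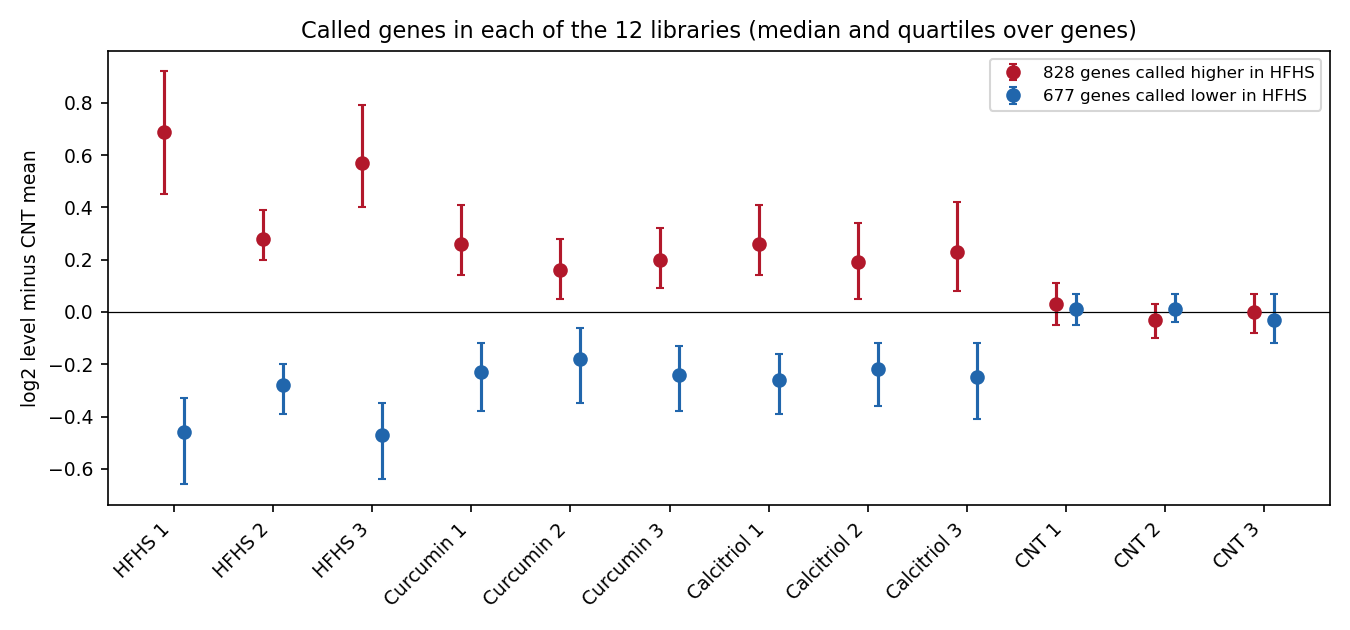
Level minus CNT mean (log2) of the genes called higher (red, 828) or lower (blue, 677) in HFHS, in each of the 12 libraries; points are medians and bars run from the first to the third quartile over genes. HFHS replicates 1 and 3 lie farthest from 0, and HFHS replicate 2 lies at 0.28 and -0.28. The genes were chosen on the HFHS and CNT libraries, so their separation there is a description.

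The number of calls depended on single libraries. Without HFHS replicate 2, the odd library of its group, 3717 genes were called. Leaving out HFHS replicate 1 or 3 gave 216 or 269 calls, and leaving out CNT replicate 1, 2 or 3 gave 538, 135 or 1361. A fit of the 6 HFHS and CNT libraries alone, with 2823 genes at an unadjusted p under 0.05, called 13, and at most 1 in any gene list below. Leaving out HFHS replicates 1 and 3 together leaves 1 HFHS library, whose spread is then assumed to be that of the other groups, and 68 genes were called. A core of 108 genes, 58 higher and 50 lower in HFHS, was called in the full fit and in each of the 6 fits that left out 1 library. That core is marked below by the words "in all 6 fits".

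The widest gaps upward were in genes of lipid storage, lipid uptake and the cell surface. Cidec encodes a protein of the droplet surface that fuses and enlarges lipid droplets (ENSMUSG00000030278, GRCm38 chromosome 6, 113424634 to 113435760). Its level was 8.35, 6.93 and 7.74 in HFHS replicates 1, 2 and 3 and 5.48, 5.42 and 5.21 in CNT. The lowest HFHS library stood 1.45 above the highest CNT library, a fitted difference of 2.30 ± 0.29 (SE) or 4.94-fold (adjusted p = 0.00342). The call held in all 6 fits, with adjusted p at most 0.0221.

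Gpc1 encodes glypican 1, a heparan sulfate proteoglycan anchored to the cell surface (ENSMUSG00000034220, chromosome 1, 92831645 to 92860779). HFHS libraries stood at 8.46, 8.49 and 8.15 and CNT libraries at 6.51, 6.83 and 6.82. Here HFHS replicate 2 was the highest of the 6. The difference was 1.65 ± 0.13, with adjusted p = 0.000122, and at most 0.000936 in the 6 fits. Cd36, the fatty acid translocase that brings long-chain fatty acids into cells (ENSMUSG00000002944, chromosome 5, 17781690 to 17888801), read 12.02, 12.14 and 12.04 against 11.12, 10.81 and 10.67. The HFHS libraries lay within 0.12 of each other, and the difference was 1.20 ± 0.12 (adjusted p = 0.000871, in all 6 fits).

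Other genes with a wide upward gap held in all 6 fits as well. Casc4 read 7.89, 7.56 and 8.02 against 6.66, 6.74 and 6.77 (1.10 ± 0.10, adjusted p = 0.000518). Cntnap1, a contactin-associated membrane protein known from myelinated axons, read 7.40, 6.80 and 6.33 against 5.52, 5.27 and 5.47 (1.42 ± 0.23). Themis, a signalling protein of developing T cells, read 5.36, 4.93 and 4.72 against 3.97, 3.99 and 3.99 (1.02 ± 0.13). In these genes every HFHS library lay above every CNT library, with replicate 1 or 3 highest. Bhlhb9 rose by 1.03 ± 0.14 and was nearly flat within HFHS, at 6.88, 7.03 and 6.96 against 5.81, 6.11 and 5.87.

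Other wide upward gaps did not hold in all 6 fits, some of them with uneven HFHS libraries. Ly6d, a small surface protein anchored by lipid, read 9.40, 6.67 and 8.75 against 5.68, 5.74 and 5.80. Its difference of 2.54 ± 0.54 (adjusted p = 0.0225) did not pass without HFHS replicate 1 (adjusted p = 0.0747), HFHS replicate 3 (0.0836), CNT replicate 1 (0.0602) or CNT replicate 2 (0.0731). Osbpl3, a lipid-binding protein of membrane contact sites, read 8.53, 6.98 and 7.17 against 6.17, 5.84 and 5.69 (1.66 ± 0.36), and missed the threshold without HFHS replicate 3 (0.0502) or CNT replicate 2 (0.0732). Adgrg2, an adhesion receptor, read 6.71, 6.53 and 7.86 against 5.70, 5.77 and 5.85 (1.26 ± 0.29), with HFHS replicate 3 highest. It missed without HFHS replicate 1 (0.0549), CNT replicate 1 (0.0637) and CNT replicate 2 (0.0784). The muscle-type tropomyosin gene Tpm2 was highest in HFHS replicate 2, at 7.34, 8.10 and 7.59 against 6.56, 6.46 and 6.38 (1.21 ± 0.22). Lgals1, a secreted galectin, read 9.21, 8.78 and 8.98 against 8.05, 7.94 and 7.97 (1.0 ± 0.18). Without CNT replicate 2, adjusted p was 0.0526 for Tpm2 and 0.053 for Lgals1.

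**Figure D2:**
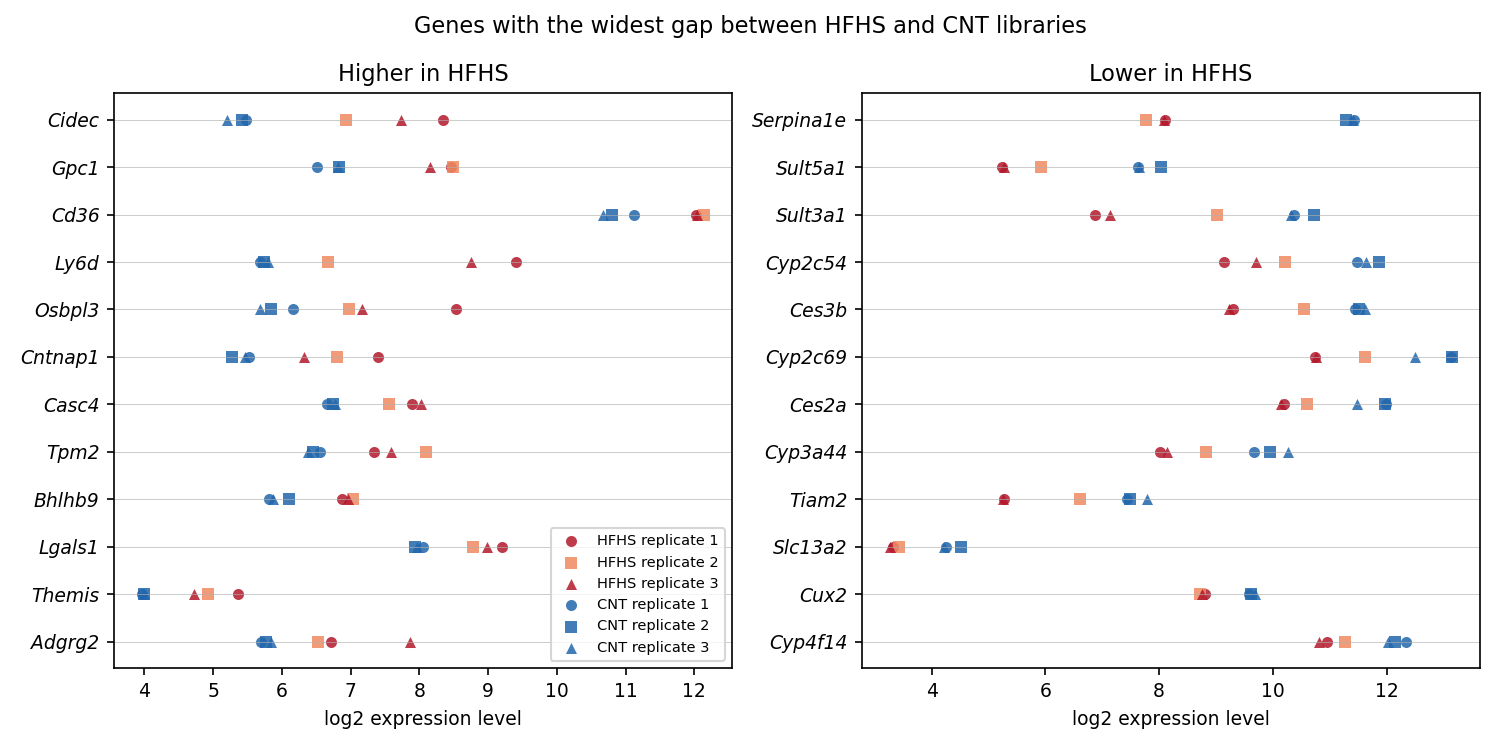
Log2 expression level of the 12 rises (left) and 12 falls (right) with the widest gap between groups, in each HFHS (red and orange) and CNT (blue) library; HFHS replicate 2 is orange. For Gpc1, Cd36, Bhlhb9, Serpina1e, Slc13a2 and Cux2 the HFHS libraries lie close together, while Ly6d and Sult3a1 spread widely. The genes were selected for their gap, so the lack of overlap is a property of the selection.

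The widest gap downward was in Serpina1e, 1 of the mouse alpha-1-antitrypsin genes, which encode the main plasma inhibitor of neutrophil elastase (ENSMUSG00000072849, chromosome 12, 103946931 to 103958975). It read 8.11, 7.77 and 8.09 in HFHS and 11.43, 11.28 and 11.40 in CNT. Neither group spread by more than a small part of the gap, and the difference was -3.38 ± 0.39 (adjusted p = 0.00342, in all 6 fits). Sult5a1, a sulfotransferase gene of the liver (chromosome 8, 123140192 to 123158315), read 5.24, 5.93 and 5.28 against 7.62, 8.03 and 7.65. HFHS replicate 2 was the highest of its group and still 1.69 below the nearest CNT library. The difference was -2.28 ± 0.18 (adjusted p = 0.000122, at most 0.001 in the 6 fits).

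Sult3a1 and the cytochrome P450 and carboxylesterase genes followed. Sult3a1, an amine sulfotransferase, read 6.88, 9.01 and 7.13 against 10.37, 10.72 and 10.31 (-2.79 ± 0.55). HFHS replicate 2 lay between the other HFHS libraries and CNT, and adjusted p was 0.0801 without HFHS replicate 1, 0.0775 without HFHS replicate 3, 0.0504 without CNT replicate 1 and 0.0704 without CNT replicate 2. Cyp2c69 read 10.73, 11.61 and 10.75 against 13.12, 13.14 and 12.49 (-1.89 ± 0.29, in all 6 fits). Cyp2c54 read 9.14, 10.22 and 9.70 against 11.47, 11.87 and 11.64 (-1.97 ± 0.33), with adjusted p = 0.052 without CNT replicate 2. Ces2a, a carboxylesterase that hydrolyses ester and amide drugs and lipids, read 10.20, 10.60 and 10.14 against 11.98, 11.96 and 11.48 (-1.49 ± 0.21, in all 6 fits). In all of these HFHS replicate 2 was the HFHS library nearest to CNT. The Serpina1, Sult3a, Cyp2c and Ces families hold near-identical copies that can share reads, so the split among their members is uncertain.

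Several falls were small in spread rather than large in size. Slc13a2, a sodium-coupled dicarboxylate transporter, read 3.33, 3.43 and 3.27 against 4.25, 4.51 and 4.22 (-0.98 ± 0.09, adjusted p = 0.000518). Cux2, a transcriptional repressor that is more abundant in female than in male mouse liver, read 8.80, 8.72 and 8.76 against 9.58, 9.62 and 9.68 (-0.87 ± 0.15, adjusted p = 0.0109). Cyp4f14, an omega-hydroxylase of leukotrienes and fatty acids, read 10.95, 11.26 and 10.81 against 12.34, 12.14 and 12.02 (-1.16 ± 0.12). All of these held in all 6 fits, and HFHS replicate 2 lay close to the other HFHS libraries. Slc13a2 and Cux2 were also among the 13 genes called when HFHS and CNT alone were fitted, with Serpina1e, Sult5a1, Ces2a and Mir22hg downward and Gpc1, Cd36, Casc4, Bhlhb9, Ermp1, Tlr12 and Lgals1 upward.

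The core that held in all 6 fits spanned other functions. Ermp1, a metallopeptidase of the endoplasmic reticulum, read 9.82, 9.59 and 9.74 against 8.83, 8.99 and 8.85 (0.83 ± 0.08, adjusted p = 0.000652). Clstn3, a calsyntenin membrane protein, read 7.27, 7.46 and 7.01 against 6.37, 6.27 and 6.20 (0.96 ± 0.11). Ucp2, a mitochondrial uncoupling protein, rose by 0.91 ± 0.14, and Smpd3, a neutral sphingomyelinase, by 1.09 ± 0.17. On the falling side, Lifr, the receptor for leukaemia inhibitory factor, read 10.97, 11.55 and 11.23 against 12.22, 12.43 and 12.27 (-1.06 ± 0.13). Slco2a1, a prostaglandin transporter, fell by 0.62 ± 0.07, and Mir22hg, the host transcript of a microRNA, by 0.83 ± 0.10. Further falls in all 6 fits were Tiam2 (-1.86 ± 0.29), the steroid reductase Srd5a1 (-0.78 ± 0.14), the enoyl-CoA isomerase Eci3 (-1.32 ± 0.21) and Acpp (-1.32 ± 0.22).

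Gene groups were then read through 33 pathway lists and 15 lists of cell type markers, 1314 genes in all, of which 1182 were tested. For each list the called members are set against the 6.55% of all genes called higher and the 5.36% called lower. Among lists of more than 1 tested gene, MHC class II, lipid-associated macrophages, actin, matrix, integrins and Toll-like receptors had the highest shares of rises. Cytochromes P450, plasma proteins, bile acids, amino acid breakdown and periportal markers had the highest shares of falls. These shares are descriptions of lists chosen with earlier results in view.

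**Figure D3:**
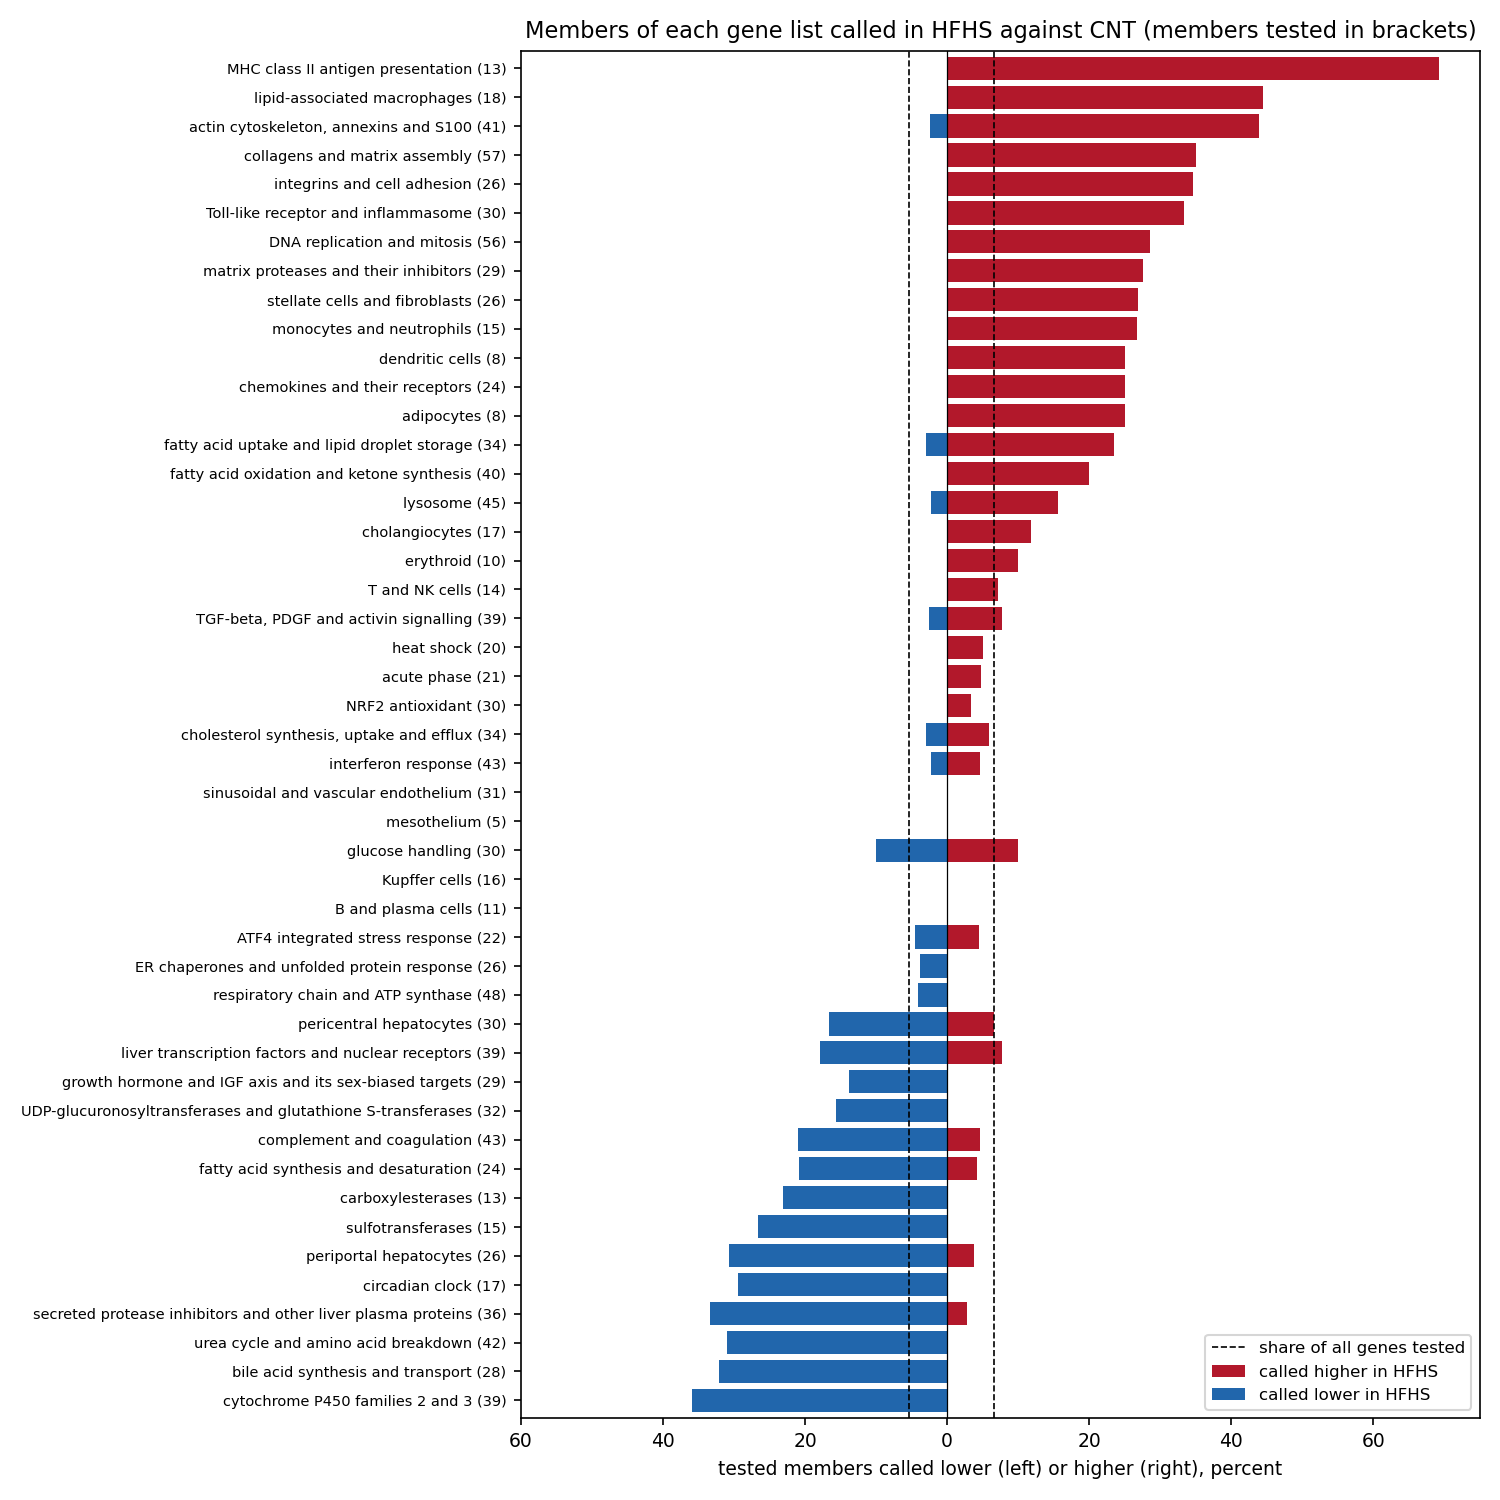
Percent of tested members of each list of at least 5 tested genes called higher (red, right) or lower (blue, left) in HFHS; the number tested stands in brackets and dashed lines mark the shares over all genes tested, 6.55% and 5.36%. MHC class II antigen presentation, with 9 of 13 members, reaches farthest right, and the cytochrome P450 families, with 14 of 39, reach farthest left.

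Some genes of lipid uptake and droplet storage rose. Of 34 tested genes, 8 were called higher and 1 lower, with a median difference of 0.08. In all 8 rises HFHS replicate 2 lay above every CNT library, as it did in 774 of all 828 called rises. Besides Cidec and Cd36 they included Pparg, the nuclear receptor that drives fat storage, at 8.27, 8.01 and 8.28 against 7.39, 7.53 and 7.32 (0.77 ± 0.10, adjusted p = 0.00282, in all 6 fits). Plin4, a perilipin that coats droplets, read 8.56, 8.24 and 9.06 against 7.74, 6.83 and 6.81 (1.49 ± 0.28), with CNT replicate 1 the highest of its group. It was highest in HFHS replicate 3, where adipocyte markers were raised as well. Adipoq read 4.23 there and 2.34 to 2.39 in the other 5 libraries, and Plin1 3.05 against 1.85 to 1.87. Their part in the Plin4 result was not tested. Gpat3, which starts glycerolipid synthesis, rose by 0.56 ± 0.12. Without HFHS replicate 1 or CNT replicate 2 only 3 rises were called, 5 without CNT replicate 1, and 6 without HFHS replicate 3. With HFHS replicates 1 and 3 both left out 5 were.

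Some fatty acid synthesis genes fell and some oxidation genes rose in HFHS. In the synthesis list 5 of 24 genes fell and 1 rose, with a median of -0.39. Fasn, fatty acid synthase, read 12.48, 12.96 and 12.77 against 13.86, 13.54 and 13.31 (-0.83 ± 0.17, adjusted p = 0.0177). Mid1ip1, which activates acetyl-CoA carboxylase, read 8.83, 9.34 and 8.99 against 9.78, 9.81 and 10.12 (-0.85 ± 0.14, in all 6 fits). Elovl6, an elongase (-0.78 ± 0.17), and Acaca, acetyl-CoA carboxylase (-0.58 ± 0.14), fell too, and Insig2, a retention protein of the SREBP pathway, rose by 0.44 ± 0.13. In these falls no HFHS library reached the CNT range. Scd1, the main liver desaturase, read 15.69, 15.46 and 15.19 against 17.06, 16.92 and 15.78. Its groups did not overlap, but CNT replicate 3 lay close to HFHS and the difference of -1.14 ± 0.47 did not pass (adjusted p = 0.127). The count of falls was 1 without HFHS replicate 1, CNT replicate 1 or CNT replicate 2, and 2 without HFHS replicate 3. It was 10 without HFHS replicate 2 and 7 without CNT replicate 3. Under quantile normalization 4 fell, 3 rose and the median was -0.20, and with HFHS replicates 1 and 3 left out 2 rose, 0 fell and the median was 0.03.

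In the oxidation and ketone list 8 of 40 genes rose and 0 fell, with a median of 0.11. Vnn1, a pantetheinase and well-known target of the fatty acid sensor PPARA, read 11.24, 11.69 and 11.52 against 10.36, 10.62 and 10.52 (0.99 ± 0.11, adjusted p = 0.00113, in all 6 fits). Fgf21, a fasting hormone secreted by liver, read 6.84, 6.20 and 6.18 against 5.50, 5.28 and 5.34 (1.04 ± 0.17, in all 6 fits). The microsomal omega-hydroxylases Cyp4a31 (0.95 ± 0.16) and Cyp4a14 (0.82 ± 0.15) and the mitochondrial thioesterase Acot2 (1.04 ± 0.20) rose as well. HFHS replicate 2 was above every CNT library in all 8 rises, near its share over all called rises (774 of 828). Cpt1a, the gate of mitochondrial fatty acid import, read 13.45, 13.82 and 13.30 against 13.29, 13.50 and 13.05 (0.24 ± 0.14, adjusted p = 0.259), with overlapping groups. Between 3 (without CNT replicate 2) and 8 (without HFHS replicate 2) rises were called when 1 library was left out, with 5 without HFHS replicate 1. Under quantile normalization, which gives all libraries the same distribution of levels, 21 were called and the median was 0.34. With libraries weighted by how closely they followed the fit, 8 rose, 3 fell and the median was -0.05.

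Genes of DNA replication rose, and at least 9 of them were called whichever library was left out. Of 56 tested genes, 16 were called higher and 0 lower, with a median of 0.38. HFHS replicate 2 exceeded every CNT library in all 16, as in 774 of all 828 called rises. The MCM2 to MCM7 proteins form the ring-shaped helicase that opens DNA at replication origins, and 5 of its 6 genes were called. Mcm5 read 6.99, 6.76 and 6.46 against 5.61, 5.78 and 5.69 (1.04 ± 0.13, adjusted p = 0.00325). Mcm6 read 8.02, 7.40 and 7.56 against 6.68, 6.74 and 6.39 (1.06 ± 0.14). No HFHS library of either gene came within the CNT range. Mcm3 (0.76 ± 0.12), Mcm4 (0.78 ± 0.13) and Mcm2 (0.95 ± 0.17) rose as well, and all of these held in all 6 fits. Mcm7 read 7.59, 7.07 and 7.12 against 6.96, 6.92 and 7.0 (0.30 ± 0.11, adjusted p = 0.101).

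Other members of the replication fork and the S-phase supply rose with them. Gins2, a partner of the helicase, read 4.32, 4.09 and 4.10 against 3.54, 3.74 and 3.59. Rrm1, a subunit of the enzyme that makes deoxyribonucleotides, read 8.10, 8.02 and 7.95 against 7.47, 7.64 and 7.65. Uhrf1, which maintains DNA methylation behind the fork, read 4.52, 4.04 and 4.37 against 3.66, 3.77 and 3.64. In each the lowest HFHS library exceeded the highest CNT library, and each held in all 6 fits. Outside the list, the chromatin assembly gene Chaf1a (0.64 ± 0.10) and the retinoblastoma-like gene Rbl1 (0.88 ± 0.12) did so too. Mitotic genes were more uneven. Mki67, a marker of cycling cells, read 7.45, 6.03 and 7.03 against 5.67, 5.86 and 5.38, and Top2a, a topoisomerase of S phase and mitosis, 6.86, 5.72 and 6.44 against 5.23, 5.49 and 4.93. HFHS replicate 2 was little above CNT in both. The differences were 1.20 ± 0.29 (adjusted p = 0.0294) and 1.12 ± 0.26 (0.026). Between 9 and 11 list members were called without HFHS replicate 1 or 3 or any 1 CNT library, and 29 without HFHS replicate 2. With HFHS replicates 1 and 3 both left out, 4 were.

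**Figure D4:**
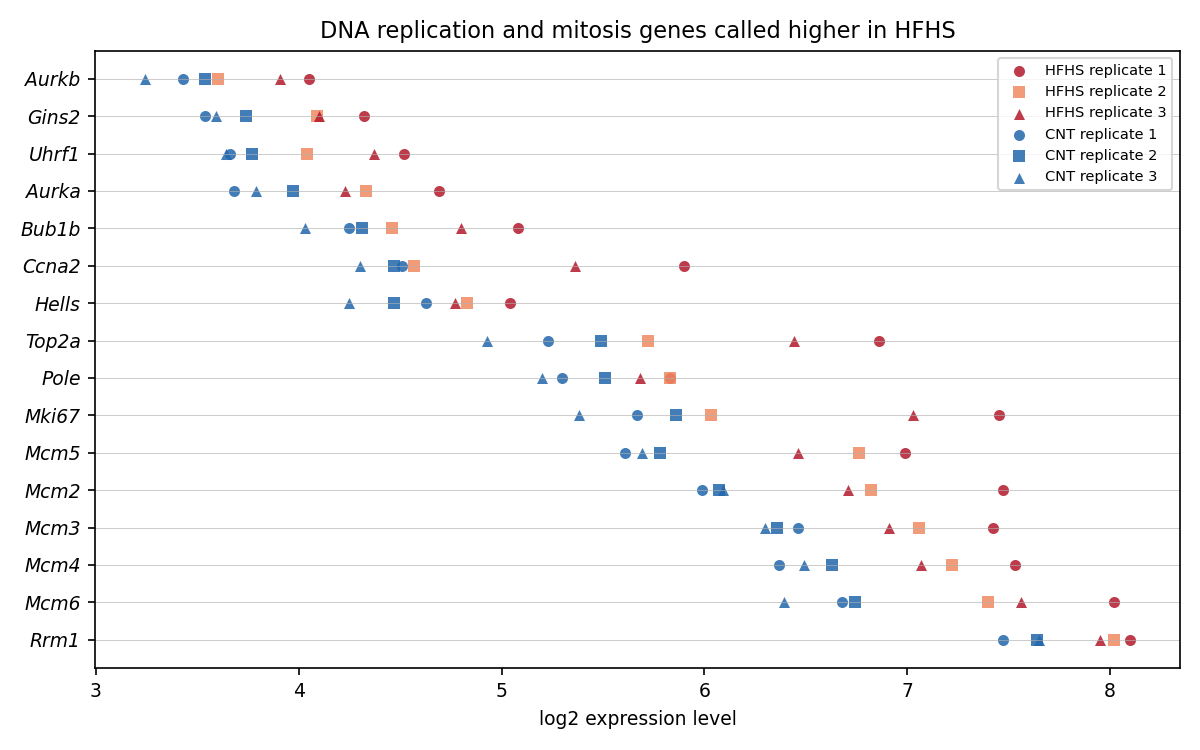
Log2 expression level of the 16 DNA replication and mitosis genes called higher in HFHS, in each HFHS (red and orange) and CNT (blue) library. For Mcm2 to Mcm6 and Rrm1 all 3 HFHS libraries lie clear of CNT, whereas for Mki67, Top2a, Ccna2 and Aurkb HFHS replicate 2 (orange) lies close to it.

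E2F factors switch on replication genes at the entry to S phase, so the promoters of these genes were examined. The letters TTTCGCGC and TTTGGCGC, core forms of the E2F site, were searched on both strands in the 250 bases before each RefSeq start (GRCm38.p6). They stood before 205 of 27025 genes in the table (0.759%) and 142 of 9857 tested genes with a promoter there (1.44%). Of the 44 replication list members with a promoter, 6 held them (13.6%), namely Cdk1, Mcm5, Mcm6, Pola1, Rfc3 and Uhrf1. Among the 11 called members with a promoter, 3 did (27.3%), and among the 33 members not called, 3 did as well (9.09%). Whether these shares differ was not tested. The promoters of Mcm5, Mcm6 and Uhrf1 are printed here because they are the called members that held the letters. These genes rose in all 6 fits, but so did Mcm2, Mcm3, Mcm4, Gins2 and Rrm1, for which no match was found. The printed promoters therefore do not stand for the called members as a whole. The searched letters are in capitals, 5′ to 3′ along the gene's strand. Mcm5 lies at chr8:75109259-75109508 on the plus strand, with matches on both strands that overlap. Mcm6 lies at chr1:128359706-128359955 on the minus strand, with 3 matches, of which the upstream ones overlap. Uhrf1 lies at chr17:56304063-56304312 on the plus strand, with 1 match. Each match is a run of letters in these windows, and binding was not measured.
Mcm5: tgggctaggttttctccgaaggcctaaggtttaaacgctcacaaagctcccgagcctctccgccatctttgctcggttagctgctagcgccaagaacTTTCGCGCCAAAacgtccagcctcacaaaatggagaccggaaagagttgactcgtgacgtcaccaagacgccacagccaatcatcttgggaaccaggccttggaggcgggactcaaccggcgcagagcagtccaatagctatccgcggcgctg
Mcm6: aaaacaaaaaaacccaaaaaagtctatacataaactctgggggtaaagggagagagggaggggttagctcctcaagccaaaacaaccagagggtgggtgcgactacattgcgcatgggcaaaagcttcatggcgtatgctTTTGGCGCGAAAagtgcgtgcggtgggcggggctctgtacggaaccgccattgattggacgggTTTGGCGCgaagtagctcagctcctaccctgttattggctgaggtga
Uhrf1: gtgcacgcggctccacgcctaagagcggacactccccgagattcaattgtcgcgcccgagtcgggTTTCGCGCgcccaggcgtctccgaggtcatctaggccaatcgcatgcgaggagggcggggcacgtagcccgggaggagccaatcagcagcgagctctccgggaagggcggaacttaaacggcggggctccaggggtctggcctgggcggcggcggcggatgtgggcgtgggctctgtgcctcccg

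E2f1 itself read 6.15, 6.00 and 5.63 in HFHS against 5.59, 5.54 and 5.51 in CNT, a difference of 0.38 ± 0.14 that did not pass (adjusted p = 0.0786).

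Detoxifying enzymes of the liver were lower in HFHS. Of 39 tested genes of cytochrome P450 families 2 and 3, which oxidise drugs and steroids, 14 fell and 0 rose, with a median of -0.48, and 37 had a difference below 0. All 13 tested Cyp2c genes were below 0, and 7 were called, or 11 and 5 under quantile normalization. Cyp2c40, an eicosanoid-forming member, read 9.75, 10.26 and 9.73 against 11.34, 11.19 and 10.93 (-1.24 ± 0.24). Cyp2r1, the vitamin D 25-hydroxylase, read 7.44, 7.60 and 7.36 against 7.92, 7.92 and 8.08 (-0.50 ± 0.09, in all 6 fits). Cyp3a44, a member of the main drug-metabolising family, fell by 1.64 ± 0.32. The count of falls was 4, 5, 6 and 2 without HFHS replicate 1, HFHS replicate 3, CNT replicate 1 and CNT replicate 2. Without HFHS replicate 2 it was 23, and under quantile normalization 8.

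Conjugating and hydrolysing enzymes moved in the same direction. Sulfotransferases, which attach sulfate to steroids and drugs, fell in 4 of 15 tested genes, with a median of -0.30. Besides Sult5a1 and Sult3a1 these were Sult1d1 (-0.61 ± 0.12) and Sult3a2 (-1.46 ± 0.31). HFHS replicate 2 had the highest sulfotransferase score of all 6 libraries, 0.43, where the score is the mean deviation of a list's genes from their means over 12 libraries. HFHS replicates 1 and 3 scored -0.81 and -0.54, and CNT libraries between 0.17 and 0.36. Of 32 glucuronosyltransferase and glutathione transferase genes 5 fell, with a median of -0.25, among them Gstm7 (-0.49 ± 0.08, in all 6 fits) and Gsto1 (-0.58 ± 0.12). Of 13 carboxylesterases 3 fell, namely Ces2a, Ces3b (-1.83 ± 0.38) and Ces1b (-0.67 ± 0.13). Without CNT replicate 2 only 1 gene was called in each of these 3 lists. The same held for sulfotransferases and the transferase list without HFHS replicate 1 or 3.

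Bile acid genes fell in 9 of 28 tested members and rose in 0, with a median of -0.33. Cyp27a1, the mitochondrial sterol hydroxylase that opens the alternative synthesis route, read 12.05, 12.40 and 12.08 against 12.95, 12.88 and 12.82 (-0.71 ± 0.12, in all 6 fits). Cyp2c70, which makes the muricholic acids particular to rodents, read 12.00, 12.30 and 12.42 against 13.08, 12.91 and 13.08 (-0.78 ± 0.12, in all 6 fits). Both groups were compact in each gene. Cyp39a1, an oxysterol hydroxylase (-0.70 ± 0.14), the bile acid receptor Nr1h4 (-0.41 ± 0.09) and Fgfr4, the hepatic receptor for the ileal hormone that restrains synthesis (-0.55 ± 0.11), fell as well. Counts were 4, 3, 5 and 2 without HFHS replicate 1, HFHS replicate 3, CNT replicate 1 and CNT replicate 2, and 13 without HFHS replicate 2. Under quantile normalization 7 fell, 3 rose and the median was -0.15. Slco1a1, an uptake transporter of bile acids and other anions, had the list's widest difference, at 6.20, 6.32 and 7.73 in HFHS and between 8.79 (replicate 3) and 10.11 (replicate 2) in CNT. The difference of -2.88 ± 0.84 did not pass (adjusted p = 0.0562). Its groups did not overlap, with CNT replicate 3 and HFHS replicate 3 nearest to each other. The cholesterol list was near the background, with 2 rises and 1 fall among 34 genes and a median of -0.06 that became 0.07 under quantile normalization. Soat1, which esterifies cholesterol, rose by 0.56 ± 0.15, the efflux transporter Abcg1 by 0.53 ± 0.14, and the sterol isomerase Ebp fell by 0.52 ± 0.14. None of the 3 was called without HFHS replicate 1, HFHS replicate 3 or CNT replicate 2.

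Urea cycle and amino acid genes were lower almost without exception in direction, though fewer passed. Of 42 tested genes 41 had a difference below 0, 13 fell and 0 rose, with a median of -0.43. Cps1, the entry enzyme of the urea cycle, read 15.25, 15.57 and 14.84 against 16.12, 16.29 and 15.77 (-0.84 ± 0.18, adjusted p = 0.0189). Ass1, which joins citrulline and aspartate, read 12.94, 13.25 and 12.12 against 13.91, 14.02 and 13.65 (-1.09 ± 0.23). Asl, which splits the product, read 12.23, 12.83 and 11.81 against 13.33, 13.29 and 13.13 (-0.96 ± 0.19). HFHS replicate 3 was lowest and HFHS replicate 2 nearest to CNT in all of these. Acmsd, a branch enzyme of tryptophan breakdown, read 7.48, 6.79 and 6.88 against 8.10, 7.92 and 8.36 (-1.08 ± 0.18, in all 6 fits), and Haao of the same pathway fell by 0.68 ± 0.17. Otc read 12.50, 12.97 and 12.36 against 13.15, 13.22 and 12.99 (-0.51 ± 0.16, adjusted p = 0.0534), and Arg1 13.74, 14.12 and 13.15 against 14.23, 14.23 and 14.26 (-0.56 ± 0.19, adjusted p = 0.0644). The number of falls was 2, 3, 2, 1 and 6 without HFHS replicate 1, HFHS replicate 3, CNT replicate 1, CNT replicate 2 and CNT replicate 3, and 32 without HFHS replicate 2. Under quantile normalization 4 fell and the median was -0.18.

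Markers of the 2 ends of the liver lobule differed in how the HFHS libraries lay. Periportal hepatocyte markers fell in 8 of 26 genes and rose in 1, Apoa4, a lipoprotein gene induced by fat, at 14.54, 13.78 and 13.14 against 12.38, 12.39 and 12.64 (1.35 ± 0.27). The periportal score was -0.72 in HFHS replicate 3 against -0.03 and 0.08 in replicates 1 and 2, and 0.30 to 0.36 in CNT. Pericentral markers fell in 5 of 30 and rose in 2, and their scores ran from -0.21 to 0.06 in HFHS and from 0.12 to 0.22 in CNT. Rgn (-0.58 ± 0.13) and the WNT-responsive factor Tbx3 (-0.52 ± 0.12) were among the pericentral falls, and the amino acid transporter Slc1a4 (1.05 ± 0.24) was a rise. Of the tested members, 21 periportal and 12 pericentral genes stand in other lists too, so these counts are not separate from the rest. Without CNT replicate 2, 1 gene fell in each list, and under quantile normalization 3 did.

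Plasma proteins made by hepatocytes were lower. Among 36 secreted protease inhibitors and related proteins 12 fell and 1 rose, with a median of -0.39. All 5 Serpina1 genes were called lower (3 under quantile normalization, with all 5 below 0), led by Serpina1e and followed by Serpina1c at 13.52, 14.19 and 13.62 against 14.77, 14.76 and 14.99 (-1.07 ± 0.17, in all 6 fits). Serpina1d fell by 0.97 ± 0.19 and Serpinf1, an antiangiogenic serpin, by 0.60 ± 0.11. HFHS replicate 2 was the HFHS library nearest to CNT in these, other than Serpina1e, where it was the farthest. Falls numbered 3, 3, 8, 2 and 7 without HFHS replicate 1, HFHS replicate 3, CNT replicate 1, CNT replicate 2 and CNT replicate 3, and 19 without HFHS replicate 2. Under quantile normalization 5 fell and the median was -0.08.

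Complement and coagulation genes fell in 9 of 43 and rose in 2, with a median of -0.30. The falls included C8b of the membrane attack complex, at 10.37, 10.07 and 10.12 against 10.88, 11.30 and 11.63 (-1.08 ± 0.23), and the clotting factor F7 (-0.62 ± 0.13). Kng1, the kininogen precursor (-0.62 ± 0.13), and C1ra, a protease of the classical pathway (-0.35 ± 0.08), also fell. One of the rises was C5ar1, the receptor of the chemoattractant C5a on myeloid cells, at 5.93, 5.53 and 5.38 against 4.84, 4.77 and 5.0 (0.74 ± 0.13). Falls numbered 0 without HFHS replicate 1 or CNT replicate 2, 1 without HFHS replicate 3, 4 without CNT replicate 1 and 16 without HFHS replicate 2, and 2 under quantile normalization.

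Acute phase genes, which hepatocytes switch on within hours of an inflammatory signal, stood apart in 1 CNT library. Their score was 0.52 in CNT replicate 3 and between -0.52 and -0.19 in the other 5 libraries. Saa1, serum amyloid A, read 11.36, 11.43 and 11.13 in HFHS and 9.86, 10.10 and 13.57 in CNT, so the HFHS libraries lay between the CNT values. Lcn2, which sequesters bacterial iron carriers, read 11.15, 10.29 and 11.12 against 8.64, 8.97 and 12.16 (0.93 ± 0.99, adjusted p = 0.548). Of 21 acute phase genes 1 rose and 0 fell, and their median was -0.17, or 0.03 under quantile normalization. Hamp, the iron hormone hepcidin, read 13.23, 12.89 and 11.47 against 13.82, 13.45 and 13.90 (-1.20 ± 0.39, adjusted p = 0.0648).

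Transcription factors, growth hormone targets and clock genes fell more often than they rose. In the list of liver transcription factors and nuclear receptors 7 of 39 fell and 3 rose, with a median of -0.22. Esr1, the oestrogen receptor, read 9.35, 9.79 and 9.19 against 10.13, 10.01 and 9.98 (-0.60 ± 0.14), and Nr5a2, a regulator of bile acid genes, fell by 0.32 ± 0.08. Rarb, a retinoic acid receptor, rose by 0.60 ± 0.16 beside Pparg. Hnf4a, the master factor of hepatocyte identity, read 12.97, 13.38 and 13.02 against 13.48, 13.50 and 13.50 (-0.37 ± 0.11, adjusted p = 0.054). HFHS replicate 2 lay near CNT for Hnf4a and Esr1. No fall in this list was called without HFHS replicate 1 or CNT replicate 2, and 1 was without HFHS replicate 3 or CNT replicate 1. Under quantile normalization 2 falls were called.

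Among 29 genes of the growth hormone axis and its sex-biased targets 4 fell and 0 rose, with a median of -0.26. They were Cux2, the growth factor receptor Egfr (11.52, 11.42 and 11.35 against 12.08, 12.97 and 12.58, a difference of -1.12 ± 0.28) and the major urinary protein genes Mup3 and Mup16. Mup3, a pheromone-binding protein secreted by the liver, read 12.82, 14.31 and 13.49 against 14.95, 15.36 and 15.31 (-1.66 ± 0.28). Of 13 tested Mup genes 5 were called lower, and their median was -0.81, though near-identical copies make single members uncertain. Igf1 read 12.93, 13.32 and 12.87 against 13.27, 13.47 and 13.47 (-0.36 ± 0.13, adjusted p = 0.0907). Falls in the list numbered 1 without CNT replicate 2, 2 without HFHS replicate 1 or 3, and 12 without HFHS replicate 2, and the median was -0.05 under quantile normalization.

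In the circadian list 5 of 17 genes fell and 0 rose, with a median of -0.32. They were the repressor Cry2 (-0.55 ± 0.12), Bhlhe40 (-0.61 ± 0.13), the output factors Dbp (-0.53 ± 0.12) and Tef (-0.48 ± 0.12), and Nr1d2 (-0.36 ± 0.11). Dbp read 10.21, 10.51 and 10.67 against 10.96, 11.11 and 10.91, with no overlap. Clock genes swing over the day, and the hour at which each liver was taken is not given in the sources used here, so its part in these values was not tested. None of the falls was called without HFHS replicate 1 or CNT replicate 2, and 1 was without HFHS replicate 3 or CNT replicate 1, while 3 were under quantile normalization.

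Genes of the extracellular matrix rose, farther in HFHS replicates 1 and 3 than in HFHS replicate 2. Of 57 tested collagens and matrix assembly genes, 20 were called higher and 0 lower, with a median of 0.77. Their score was 0.85 and 0.79 in HFHS replicates 1 and 3 but -0.13 in HFHS replicate 2, just above the CNT range of -0.32 to -0.14. Among the 20 called genes, HFHS replicate 2 exceeded every CNT library in 18, beside 774 of all 828 called rises. Col3a1, a fibrillar collagen of scars, read 11.58, 9.21 and 11.34 against 9.03, 8.78 and 8.65 (1.89 ± 0.51, adjusted p = 0.0442). Eln, elastin, read 7.84, 5.04 and 7.05 against 5.03, 4.50 and 4.73 (1.89 ± 0.54), so HFHS replicate 2 was level with CNT replicate 1. Col1a1 and Col1a2, the chains of type I collagen, showed the same division and did not pass (differences of 2.11 ± 0.62 and 1.57 ± 0.46, adjusted p = 0.054 and 0.0523). Each of Col3a1 and Eln was called without HFHS replicate 2 alone of the 6 fits, with adjusted p between 0.0814 and 0.16 in the other 5.

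Basement membrane and matricellular genes followed the same order. Col4a1, the network-forming collagen of basement membranes, read 10.55, 9.42 and 10.29 against 9.12, 8.99 and 8.70 (1.15 ± 0.22), and its neighbour Col4a2 rose by 1.02 ± 0.21. Thbs2, a matricellular thrombospondin, read 7.62, 6.35 and 7.70 against 6.02, 5.68 and 5.80 (1.39 ± 0.27), and Tnc, tenascin C, rose by 1.01 ± 0.21. In these HFHS replicate 2 was above all CNT libraries, by less than the other HFHS libraries. The exception within the list was Col12a1, a collagen that decorates fibrils. It read 5.87, 5.71 and 6.30 against 4.94, 5.19 and 5.26 (0.83 ± 0.13, adjusted p = 0.00932) and was the 1 collagen called in all 6 fits. List rises numbered 1 without HFHS replicate 1, HFHS replicate 3 or CNT replicate 2, 8 without CNT replicate 1 or CNT replicate 3, and 46 without HFHS replicate 2. With no filter on low genes the adjustment covered 22381 genes and 12 rises were called.

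Matrix proteases, stellate cell markers and the TGF-beta pathway were read beside the collagens. Proteases and their inhibitors rose in 8 of 29 genes, with a median of 0.50. Mmp12, macrophage elastase, read 7.58, 5.14 and 6.36 against 4.32, 4.60 and 4.31 (1.95 ± 0.47). Timp1, an inhibitor of matrix metalloproteases, read 4.84, 3.36 and 4.15 against 3.14, 3.07 and 3.15 (1.0 ± 0.26). Stellate cell and fibroblast markers rose in 7 of 26, with a median of 0.36, including Lrat, which stores vitamin A in stellate cells (9.23, 9.04 and 9.05 against 8.87, 8.20 and 8.38), and the cytoskeletal gene Tagln (1.08 ± 0.25). Acta2, a marker of activated stellate cells, read 5.08, 4.84 and 6.14 against 5.02, 4.55 and 4.46 (0.68 ± 0.27, adjusted p = 0.117) and overlapped between groups. The stellate score was 0.51, -0.05 and 0.37 in HFHS replicates 1, 2 and 3 and -0.30 to -0.07 in CNT. Neither list had more than 1 rise without HFHS replicate 1, HFHS replicate 3 or CNT replicate 2. With no filter on low genes 3 proteases and 5 stellate markers rose. In the TGF-beta, PDGF and activin list 3 of 39 rose and 1 fell, near the background. There were 17 rises without HFHS replicate 2, a fit that called 2042 of all 12637 genes higher, and 0 without HFHS replicate 1, HFHS replicate 3 or CNT replicate 2. Tgfb1 read 7.45, 7.06 and 7.63 against 7.25, 7.05 and 7.09 (0.25 ± 0.15, adjusted p = 0.276). Acvr2b, an activin receptor, fell, at 4.66, 5.06 and 4.79 against 5.48, 5.64 and 5.33 (-0.65 ± 0.12).

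Actin, annexin and S100 genes rose in 18 of 41 and fell in 1, with a median of 0.59. Anxa2, a membrane-binding annexin, read 9.89, 8.43 and 9.27 against 7.95, 7.71 and 7.79 (1.38 ± 0.27), and Anxa1 rose by 0.72 ± 0.16. Cnn2, a calponin, rose by 0.65 ± 0.14. HFHS replicate 2 lay above all CNT libraries in 14 of the 18 rises, beside 774 of all 828 called rises. Outside the list, 2 actin-linked genes of the core were steadier. Vcl, vinculin, read 9.41, 9.21 and 9.40 against 8.84, 8.72 and 8.67 (0.60 ± 0.07), and Synpo 8.47, 8.07 and 8.30 against 7.35, 7.06 and 7.39 (1.01 ± 0.12). Rises in the list numbered 3, 4, 7 and 0 without HFHS replicate 1, HFHS replicate 3, CNT replicate 1 and CNT replicate 2, and 27 without HFHS replicate 2. With no filter on low genes there were 12.

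**Figure D5:**
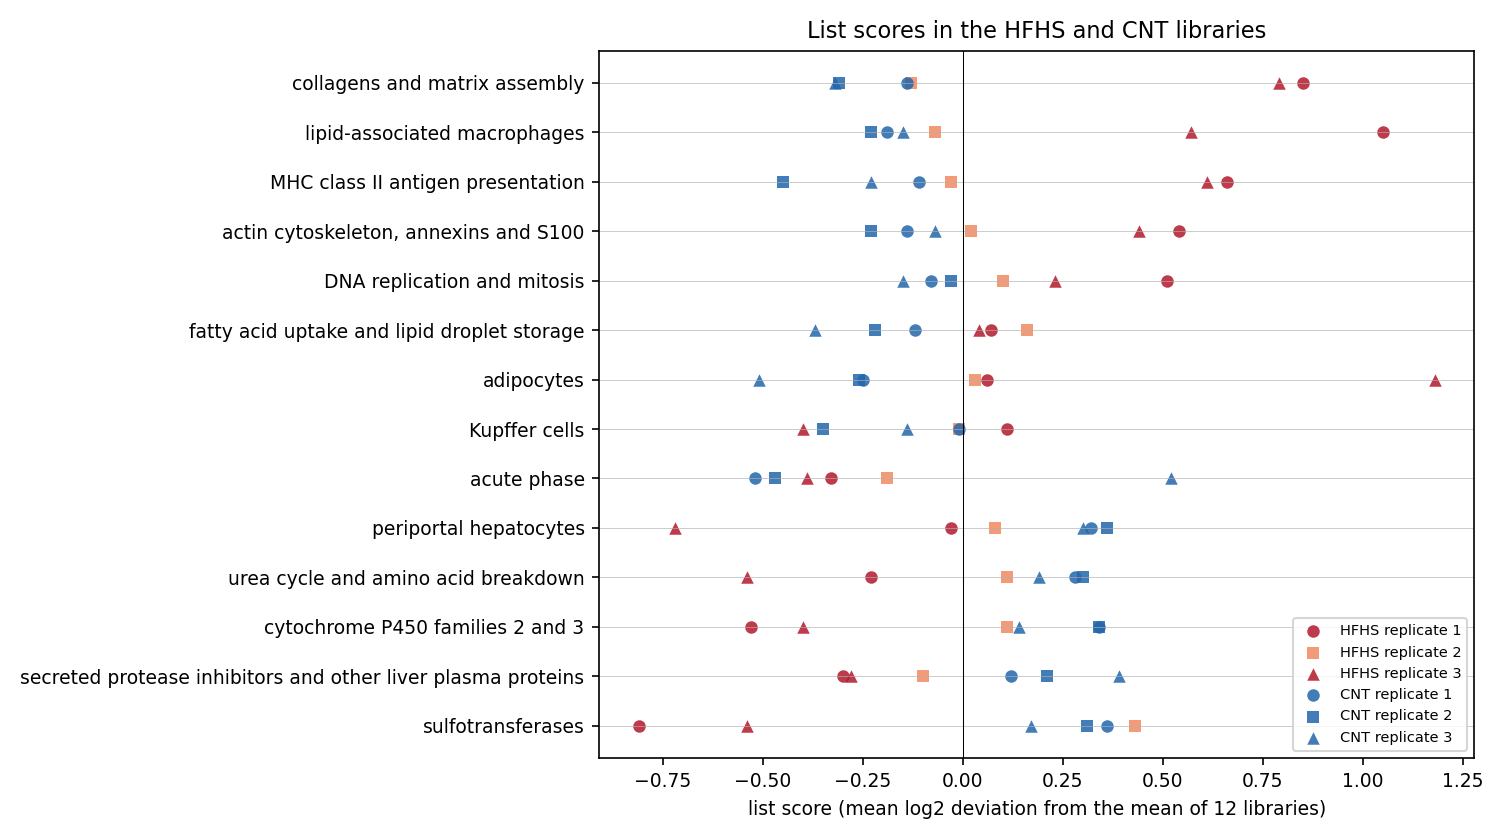
List scores (mean log2 deviation of a list's tested genes from their means over 12 libraries) in each HFHS (red and orange) and CNT (blue) library for 14 lists. HFHS replicate 2 lies at -0.13 for collagens, near CNT, and at 0.16 for lipid storage, above CNT. Adipocyte markers stand out in HFHS replicate 3 (1.18) and acute phase genes in CNT replicate 3 (0.52).

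Macrophage genes were raised in the same libraries as the collagens. Of 18 markers of lipid-associated macrophages, the cells that take up lipid in fatty liver and fat tissue, 8 rose and 0 fell, with a median of 0.70. Their score was 1.05 and 0.57 in HFHS replicates 1 and 3 and -0.07 in HFHS replicate 2, against -0.23 to -0.15 in CNT. Gpnmb had the widest range within HFHS of all called genes with a rise, 8.62, 4.89 and 7.15 against 4.31, 4.22 and 4.21. Trem2, the lipid receptor that defines these cells, read 6.22, 5.0 and 5.82 against 4.37, 4.55 and 4.89 (1.08 ± 0.24). Lpl, lipoprotein lipase, read 10.56, 8.78 and 10.10 against 7.82, 7.99 and 8.38 (1.75 ± 0.38), and Cd68, a lysosomal protein of macrophages, 8.87, 8.37 and 8.49 against 8.07, 7.77 and 8.02 (0.62 ± 0.13). HFHS replicate 2 exceeded every CNT library in 7 of the 8 rises, beside 774 of all 828 called rises. Rises numbered 0 without HFHS replicate 1 or CNT replicate 2, 1 without HFHS replicate 3 or CNT replicate 1, and 10 without HFHS replicate 2. With no filter on low genes 2 were called, and with a stricter filter 4 were, with a median of 0.16.

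Resident Kupffer cells, the macrophages that line the liver sinusoids, were read through their own markers. Of 16, 0 were called in either direction by limma's moderated test in the full fit. There, 2 had an unadjusted p under 0.05, and in none did the groups separate. Clec4f, which defines these cells, read 10.86, 11.19 and 10.63 against 10.92, 10.67 and 10.87. Timd4, a receptor for dying cells, read 7.57, 7.50 and 6.73 against 7.51, 6.83 and 7.04. Cd163, a scavenger receptor of resident macrophages, differed by -0.89 ± 0.42 (adjusted p = 0.17 in limma's moderated test). HFHS replicate 2 was its highest library and HFHS replicates 1 and 3 its lowest. Cd163 was called lower without HFHS replicate 2 (adjusted p = 3.1e-05) and with library weights (0.00322). Whether the macrophage and Kupffer lists differ from each other was not tested.

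Monocyte and neutrophil markers rose in 4 of 15 tested and fell in 0, with a median of 0.63. Their score was 0.50, -0.11 and 0.43 in HFHS replicates 1, 2 and 3 and -0.46 to -0.23 in CNT. Cybb, the membrane core of the superoxide-forming NADPH oxidase, read 9.62, 8.98 and 9.32 against 8.78, 8.42 and 8.58 (0.71 ± 0.16). Ncf1 (0.66 ± 0.13) and Ncf4 (0.52 ± 0.15), cytosolic partners of this enzyme, rose too. Neither these genes nor Cybb were called without HFHS replicate 1, HFHS replicate 3 or CNT replicate 2. Of the 6 fits, Ncf4 was called only in that without HFHS replicate 2. Ccr2, the receptor by which monocytes enter the liver, read 6.55, 5.19 and 6.03 against 5.15, 5.02 and 5.18 (0.81 ± 0.25, adjusted p = 0.0578). The neutrophil markers Ly6g and Mpo were below the level tested in every library.

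Antigen presentation had the highest share of calls of any list of more than 1 gene. Of 13 tested MHC class II genes 9 rose, and all 13 had a difference above 0, with a median of 0.72. Cd74, the invariant chain that escorts class II molecules, read 11.96, 10.91 and 11.88 against 10.91, 10.25 and 10.62 (0.99 ± 0.25). H2-Eb1 read 10.14, 8.85 and 10.06 against 8.89, 8.27 and 8.63 (1.08 ± 0.29). H2-DMa, which loads peptide, was less uneven, at 7.06, 6.54 and 7.06 against 6.24, 6.03 and 6.21 (0.73 ± 0.13). HFHS replicate 2 lay above every CNT library in 5 of the 9 rises, beside 774 of all 828 called rises. It was no higher than CNT replicate 1 for H2-Eb1 and Cd74. Rises numbered 1, 2, 5, 0 and 3 without HFHS replicate 1, HFHS replicate 3, CNT replicate 1, CNT replicate 2 and CNT replicate 3, and 12 without HFHS replicate 2. With no filter 4 were called, and under quantile normalization 5.

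Signals that recruit and alert immune cells rose as well. Of 24 tested chemokines and receptors 6 rose and 0 fell, with a median of 0.44. Ccl5, a T cell and monocyte attractant, read 6.22, 5.53 and 6.50 against 5.22, 4.78 and 4.88 (1.12 ± 0.20). Cxcr4 read 5.84, 4.86 and 5.75 against 4.46, 4.57 and 4.46 (0.99 ± 0.20), and Ccl2, the monocyte attractant, 4.77, 4.06 and 4.36 against 3.67, 3.85 and 3.78 (0.63 ± 0.16). Ccr7 and Cxcl10 rose by 0.60 ± 0.11 and 0.64 ± 0.17. In each HFHS replicate 2 was the lowest HFHS library and still above all CNT libraries. Rises numbered 1, 2 and 0 without HFHS replicate 1, HFHS replicate 3 and CNT replicate 2, and 14 without HFHS replicate 2, while 4 were called under quantile normalization.

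In the Toll-like receptor and inflammasome list 10 of 30 rose and 0 fell, with a median of 0.28. Tlr12, a receptor for parasite profilin, read 8.55, 8.45 and 8.13 against 7.47, 7.45 and 7.40 (0.94 ± 0.12, adjusted p = 0.00342, in all 6 fits). Tlr2, a receptor for bacterial lipoproteins, read 7.04, 6.23 and 6.76 against 5.91, 5.93 and 6.03 (0.72 ± 0.19), Cd14 rose by 0.72 ± 0.16, and the cytokine Il1b by 0.75 ± 0.18. HFHS replicate 2 exceeded every CNT library in all 10, near its share over all called rises (774 of 828). Among 26 integrins and adhesion genes 9 rose and 0 fell, with a median of 0.36, including Itga4 (0.83 ± 0.16) and its ligand Vcam1, at 9.62, 9.08 and 9.18 against 8.77, 8.41 and 8.19 (0.84 ± 0.17). In 7 of these 9 rises HFHS replicate 2 exceeded every CNT library, beside 774 of all 828 called rises. The integrin score was -0.08 in both HFHS replicate 2 and CNT replicate 1. Without HFHS replicate 1, HFHS replicate 3 or CNT replicate 2, at most 2 genes of either list were called, and without HFHS replicate 2 there were 20 and 17 rises. Under quantile normalization each list had 5.

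Lysosome genes rose in 7 of 45 and fell in 1, with a median of 0.02. Hexa, a subunit of the enzyme that degrades GM2 ganglioside, read 10.26, 10.07 and 10.30 against 9.81, 9.77 and 9.66 (0.46 ± 0.08, in all 6 fits). Gm2a, outside the list, encodes the cofactor of that enzyme and moved the other way, at 10.50, 10.30 and 10.28 against 10.96, 10.98 and 10.87 (-0.58 ± 0.08, in all 6 fits). Tfeb, a factor that drives lysosome genes, fell by 0.35 ± 0.09. Leaving out HFHS replicate 1, HFHS replicate 3, CNT replicate 1 or CNT replicate 2 gave 1, 2, 3 or 1 lysosome rises.

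Glucose genes moved in both directions. Of 30, 3 rose and 3 fell, with a median of -0.16. The rises were Pkm, the pyruvate kinase of non-hepatocyte and growing cells (8.28, 7.49 and 8.44 against 7.37, 7.20 and 7.28), and the hexokinases Hk2 (0.53 ± 0.15) and Hk3 (0.57 ± 0.17). The falls included Gys2, liver glycogen synthase (-0.57 ± 0.14), and Slc37a4, the glucose 6-phosphate transporter of glucose release (-0.66 ± 0.14). None of the 6 was called without HFHS replicate 1, HFHS replicate 3 or CNT replicate 2.

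Stress and mitochondrial lists were near or below the background in the fit of all 12 libraries. The endoplasmic reticulum list had 1 fall among 26 and a median of -0.16 that turned to 0.06 under quantile normalization, and the ATF4 list had 1 rise and 1 fall among 22. Heat shock and NRF2 lists had 1 rise each, of 20 and 30, and the interferon list had 2 rises and 1 fall of 43. Respiratory chain and ATP synthase genes had 2 falls of 48, although every one of the 48 had a difference below 0 (median -0.23, and -0.10 under quantile normalization). Their score was -0.21, 0.10 and -0.25 in HFHS replicates 1, 2 and 3 and 0.04 to 0.18 in CNT. Without HFHS replicate 2, a fit that called 1675 of all genes lower, 37 of the 48 fell, as did 7 of 20 heat shock genes, and 7 of 22 ATF4 genes rose.

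Markers of other cells in the extract were also examined. Of 8 tested adipocyte markers 2 rose, Cidec and Pparg, which fatty hepatocytes also express. Cfd, adipsin, read 3.35, 3.62 and 9.18 in HFHS and 3.46, 3.43 and 3.43 in CNT, and Fabp4 7.09, 6.63 and 9.22 against 6.46, 6.38 and 6.28. Adipoq read 4.23 in HFHS replicate 3 and 2.34 to 2.39 in the other 5 libraries. It was not tested, since it reached the filter level of 3.32 in too few libraries. The adipocyte score was 1.18 in HFHS replicate 3, 0.06 and 0.03 in replicates 1 and 2, and -0.51 to -0.25 in CNT. The part of adipocyte RNA in the lipid storage results was not tested. Cholangiocyte markers rose in 2 of 17, Ly6d and Krt8, with scores of 0.96, -0.12 and 0.43 in HFHS and -0.26 to 0.04 in CNT. Mesothelial scores were 0.48, -0.26 and 0.43 in HFHS and -0.30 to -0.10 in CNT. For both lists HFHS replicates 1 and 3 were the highest of the 6, and their part in the results above was not tested. T and NK cells had 1 rise of 14, Cd4, dendritic cells 2 of 8, and erythroid markers 1 of 10. B and plasma cells (11 tested), endothelium (31) and mesothelium (5) had 0 calls by limma's moderated test, with 3, 6 and 3 genes at an unadjusted p under 0.05. Of the 14 pancreatic markers only Cela1 was tested, and Prss1, Amy2a5 and Ins2 were listed at 0 in every library.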

How the data were processed

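RNA of whole mouse liver was sequenced in 12 libraries, 3 per group, and 6 of these, HFHS and CNT, are compared. The deposited values are log2 expression levels, 1 table per sample, per the file contents. The transformation is not given in the sources used here. Within a gene, low levels are pulled toward a common value. Per the submitters' processing notes, STAR 2.4.0d, DESeq2 1.8.1 and the build GRCm38 were used, without their roles. The tables hold no counts, so depth per sample and counting error are unknown.

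Of 45792 genes in the files, 23411 were at 0 in every library. The 12637 genes with a level of at least 3.32 (10 on the linear scale) in at least 3 of the 12 libraries were tested. Of these, 12343 reached that level in all 12 libraries. A further 4 genes passed only through the HFHS libraries and 1 only through the CNT libraries, and 4 of these 5 were called. Group means of all 4 groups were fitted together with limma 3.58.1 in R 4.3.3, which then share 1 estimate of the spread. A trend and robust moderation were used, two-sided, with Benjamini-Hochberg adjustment over all tested genes and a threshold of 0.05. Errors are standard errors of the fitted log2 difference of 3 against 3 libraries. The fitting was tested on simulated data.

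Groups came from the sample titles. No pair of libraries was near-identical (smallest median difference 0.084). Symbols and positions are from GENCODE M21 (GRCm38), and promoters from RefSeq. The members and lists were chosen with earlier results of these data known. Of 1314 list genes, 123 lay below the filter, 5 were at 0 and 3 were not found.

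The genes named were the 12 rises and 12 falls with the widest gap between groups and the 6 of each with the smallest p. Also named were the 8 called genes with the widest range within HFHS and up to 5 called genes per list with at least 3 calls. Key enzymes, ligands, receptors and markers of a list that did not pass, such as Scd1, Col1a1, Hnf4a and Otc, are given as values. Some genes that meet the rule are not reported here. Mcm2, Rrm1, Uhrf1, Mki67, Top2a, Ccna2, Aurkb, Smpd3, Synpo, Vcl, Rbl1, Chaf1a, Ucp2, Gm2a, Eci3, Acpp, Srd5a1, Slco1a1, Clec4f, Timd4, Cfd, Fabp4, Saa1, Saa2, Orm2, Lcn2, Igkc, Cd163, Adipoq, Plin1, Ly6g, Mpo, Krt8, Cd4 and Cela1 were chosen after their values were seen.

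Alternatives were no filter, a stricter filter at 50 on the linear scale, quantile normalization, median centring and no trend. Others were library weights, HFHS and CNT alone, the replicate number as a block, leaving out each library, and leaving out HFHS replicates 1 and 3 together.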

Additional observations from a re-analysis of the deposited data

How the results depend on the processing

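The number of calls depended strongly on the libraries and on the fit. With library weights 4790 genes were called (2431 higher, 2359 lower), and with HFHS and CNT fitted alone 13 (7 higher, 6 lower). With HFHS replicates 1 and 3 both left out 68 were called (50 higher, 18 lower), and the stricter filter gave 545 higher and 643 lower. The balance also turned under median centring (714 higher, 760 lower) and without CNT replicate 3 (587 higher, 774 lower). Leaving out 1 library at a time gave 135 to 3717 calls, 69 to 2042 higher and 66 to 1675 lower. Over 194 named genes and 15 alternatives, 2076 values kept their direction and their side of the threshold, 771 lost the call, 36 gained it and 3 changed sign. With HFHS replicates 1 and 3 left out, Tgfb1 came to -0.07 and Cd163 to 0.38, and with library weights Cpt1a came to -0.02. The cause was not tested. None of these genes was called in the full fit. By limma's moderated test, Tgfb1 and Cd163 were called without HFHS replicate 2 (adjusted p = 0.0409 and 3.1e-05). They were also called with library weights (0.0302 and 0.00322). Most of these genes were chosen for a call or a gap, so their signs had little room to turn. List medians turned too, such as carboxylesterases from -0.25 to 0.06 with HFHS replicates 1 and 3 left out. Replicate numbers do not pair the samples in the labels. Deviations of same-numbered libraries correlated at 0.07, 0.19 and 0.0, and 4 of 6 libraries correlated best with their own number. With the replicate block 1862 genes were called (1082 higher, 780 lower). Mesothelium markers had no member above the stricter filter. The unknown depth limits what can be said of genes with low levels.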

Other observations

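Immunoglobulin and acute phase genes marked single libraries. Igkc, the kappa light chain of plasma cells, read 8.90, 8.0 and 10.60 in HFHS replicates 1, 2 and 3 and 8.52, 8.36 and 8.45 in CNT. HFHS replicate 3, the library with the adipocyte genes, was the highest of the 6. Saa2 read 10.48, 10.47 and 10.20 against 9.01, 9.21 and 13.12, and Orm2 8.95, 9.04 and 9.57 against 8.09, 8.80 and 12.52. In both, CNT replicate 3 stood above every HFHS library, and the other CNT libraries stood below them. Cd163, the Kupffer cell marker given above, read 6.70, 8.50 and 6.49 against 8.02, 8.25 and 8.10 (-0.89). Here HFHS replicate 2 was the highest of the 6 libraries, while HFHS replicates 1 and 3 lay below all CNT libraries.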
